A study of Mus musculus with 8 samples.

Results

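The genes described here are 46 genes of protein folding in the endoplasmic reticulum (ER) and of the unfolded protein response. They were picked by symbol from a list of names, with no measured value in the rule, but the list was chosen with earlier results of these data known. Each was found in both deposited tables, the counts on 53801 genes and the normalised counts on 25485 genes. The messenger RNA came from cells sorted from mouse intestinal crypts as Lgr5-GFP+ stem cells. These cells had been stained for EpCAM, an epithelial surface protein, CD45, a leukocyte surface protein, and CD24, another surface protein. Each library was amplified from a small pool of sorted cells. All 8 mice carried the Lgr5-EGFP-IRES-CreERT2 allele, which expresses a tamoxifen-inducible Cre in Lgr5+ cells, and β-catenin lacking exon 3 (β-catGOF), a stabilised form that keeps Wnt signaling active. The groups differ in the floxed alleles of Mll1, a histone H3K4 methyltransferase: 4 mice are labelled β-catGOF; Mll1-/- and 4 are labelled β-catGOF; Mll1+/-. Tamoxifen at 50 mg/kg was injected on 3 days in a row at 4 to 6 weeks of age, and cells were taken on day 10. Each library is 1 mouse, no library with unmutated β-catenin was analysed here, and sex is not labelled.

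Secreted and membrane proteins enter the ER through the Sec61 channel, lose their signal peptide, receive sugars and disulfide bonds, and fold with the help of chaperones, while proteins that fail to fold are sent back to the cytosol for degradation. When unfolded protein builds up, sensors in the ER membrane (IRE1, PERK and ATF6) start the unfolded protein response: IRE1 splices the *Xbp1* messenger RNA, PERK slows translation and favours *Atf4*, and ATF6 is cut to release a transcription factor. Goblet and Paneth cells, the secretory cells of the crypt, carry a large ER and a heavy folding load, and mice without *Xbp1* or *Ern2* in the intestine are known to have defects of these cells.

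The level of each gene per length was read in the 4 libraries labelled Mll1+/- as TPM, the counts divided by gene length and scaled to the same total in every library. By this measure 9 members lay above 100 TPM, 22 between 10 and 100 TPM and 15 below. The most abundant member was *Spcs1*, a signal peptidase subunit, at 237 ± 23.0 TPM (SD, n = 4), followed by the disulfide isomerase *Pdia3* at 218 ± 34.5 TPM, which lay within 1 SD of it. The chaperone *Hspa5* (BiP) was at 169 ± 37.8 TPM and *Hsp90b1* (GRP94) at 142 ± 15.1 TPM. The sensors were far less abundant: *Atf6* was at 3.63 ± 0.445 TPM, *Eif2ak3* (PERK) at 2.58 ± 0.965 TPM, *Ern1* (IRE1α) at 1.37 ± 0.222 TPM and *Ern2* (IRE1β) at 1.11 ± 0.641 TPM. The last 2 lay within 1 SD of each other. *Derl3* was the lowest member, with 0 to 35 counts in the 8 libraries.

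**Figure D1:**
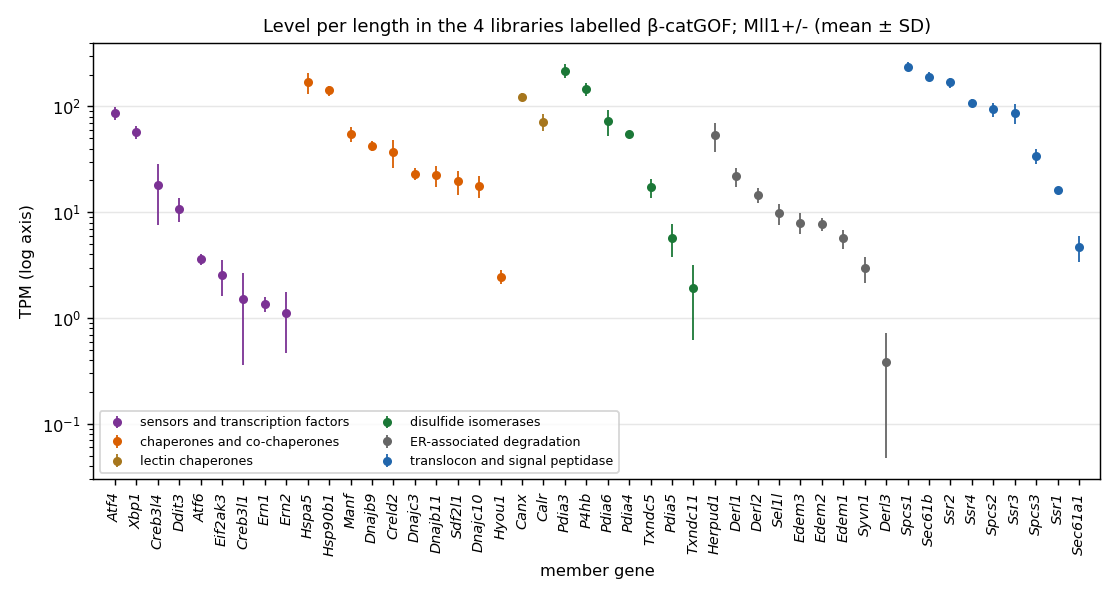
Level per length of the 46 members in the 4 libraries labelled β-catGOF; Mll1+/-, as the mean TPM with the SD (bars) on a log axis, coloured by role. Translocon, chaperone and isomerase genes reach the highest levels, sensors lie mostly at the low end, and *Derl3* is the lowest.

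The libraries held 14468751 to 16847793 counts on genes, of which 17.1 to 30.1% were mitochondrial. Values for single genes are given as CPM, the counts scaled by the TMM-adjusted library total, on which 3 counts, taken as the floor, were worth 0.162 to 0.241 CPM. Positions of genes are those of mm10. The values of each genotype are listed in 1 order throughout: J_7075, J_7096, J_7135 and J_7136 for the libraries labelled Mll1-/- (the Mll1-/- set), then J_7079, J_7100, J_7134 and J_7139 for those labelled Mll1+/- (the Mll1+/- set). *Kmt2a*, which encodes Mll1, was at 59.5, 62.6, 78.5 and 53.5 CPM in the Mll1-/- set and 50.2, 64.9, 51.2 and 48.9 CPM in the Mll1+/- set. Its counts were therefore not lower in the libraries labelled Mll1-/- (log2 fold change 0.24, standard error 0.17, adjusted p = 0.710, edgeR), and since the counts do not separate exons, they cannot check the deletion. Library J_7135 stood apart, with a highest Spearman correlation to another library of 0.909, where each other library reached at least 0.947. The stem cell gene *Lgr5* was at 232 to 277 CPM in the Mll1-/- set against 215 to 308 CPM in the Mll1+/- set, and the leukocyte gene *Ptprc* (CD45) at no more than 0.957 CPM in any library.

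Members were compared between the genotypes to ask whether the label Mll1-/- comes with a change of the folding machinery in Wnt-activated stem cells. The study also saw non-recombined crypts that still expressed Mll1 in such mice. How many of the sorted cells had lost Mll1 was not measured here. Of the 45 members that passed the filter on low counts (all but *Derl3*), 28 had a higher and 17 a lower mean in the libraries labelled Mll1-/-, and the median log2 fold change was 0.04, beside 0.0076 over all 16445 genes tested. No member had an adjusted p under 0.1 in edgeR's quasi-likelihood test, where 14 of all genes (0.0851%) did, and the smallest adjusted p of a member was 0.249. At an unadjusted p under 0.05 there were 5 members with a higher level (*Ern2*, *Creb3l1*, *Pdia5*, *Sdf2l1* and *Txndc5*), beside 5.4% of all genes tested, and 2 with a lower level (*Canx* and *Spcs1*), beside 3.75%. Every library labelled Mll1-/- lay above every library labelled Mll1+/- for the same 5 members, where 3.34% of all genes did so, and below for *Canx*, *Spcs1* and *Spcs2*, where 2.94% did so. Complete separation of 4 from 4 libraries corresponds to p = 0.0286 in an exact permutation test (two-sided), and no smaller p is possible there. The DESeq2 Wald test called 2 members at an adjusted p under 0.1, *Ern2* (adjusted p = 0.00923) and *Txndc5* (adjusted p = 0.0166), among 406 of all genes (2.47%). The study itself used DESeq2 at this threshold. Counts of this design were simulated with edgeR's own estimates of the spread between libraries, which may favour edgeR. On these counts DESeq2 made false calls well above its threshold. edgeR did not, but it missed most of the simulated 2-fold changes, so a member without a call may still differ. The genotypes overlapped for the other 37 members, and the 95% interval of the log2 fold change included 0 for 38 of 45. In sorted bulk samples, fewer cells of a type and less RNA per cell cannot be told apart.

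**Figure D2:**
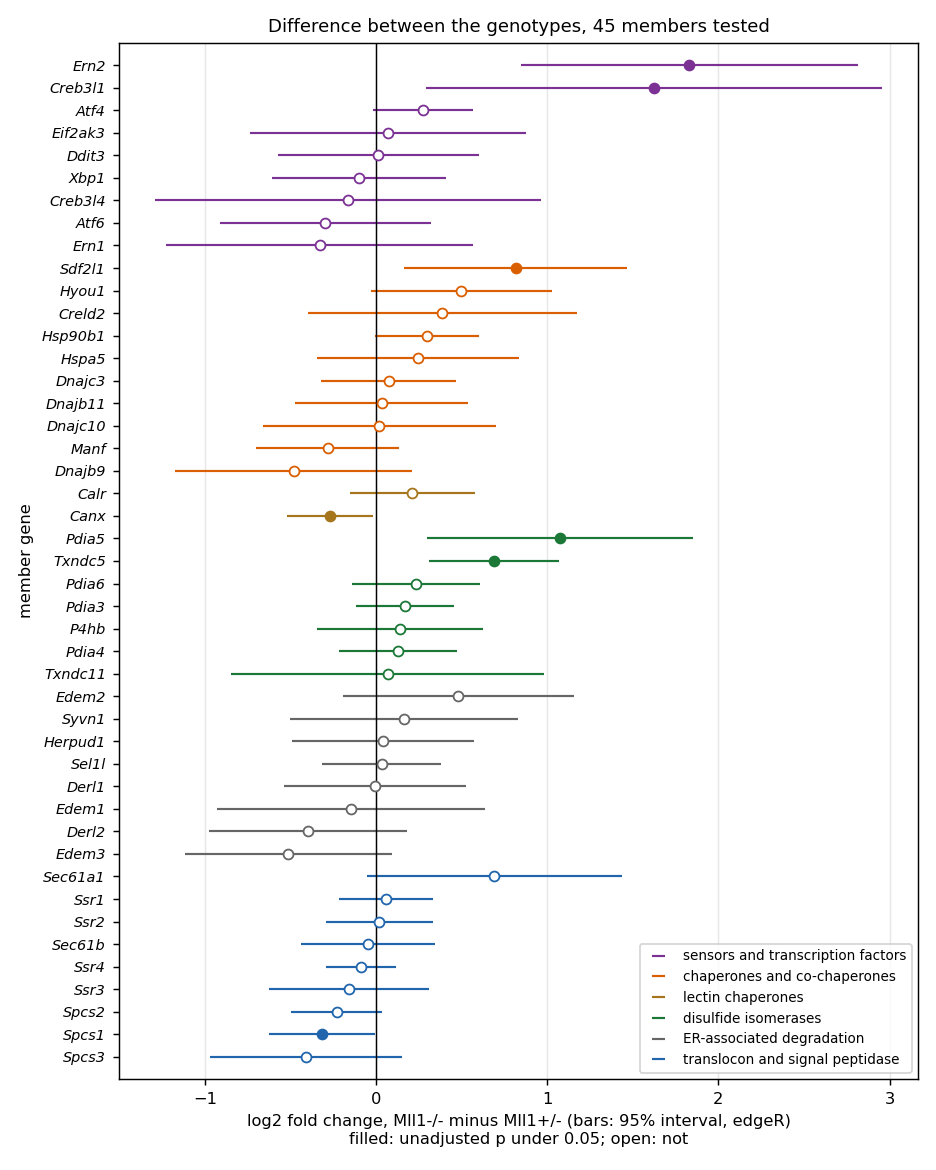
Log2 fold change of the 45 members tested, libraries labelled Mll1-/- minus those labelled Mll1+/-, with the 95% interval of edgeR's fit (bars), grouped and coloured by role. Filled points mark the 7 members with an unadjusted p under 0.05. The widest shifts are those of *Ern2* at 1.83 and *Creb3l1* at 1.62. The 7 isomerases among the members all lie above 0 with J_7135 included.

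The sensors and transcription factors held the 2 members with the widest difference. *Ern2* (ENSMUSG00000030866, chromosome 7, 122169893 to 122186207) encodes IRE1β, an IRE1 paralogue known from the mucus-secreting epithelium of gut and airways, and was at 5.02, 6.95, 10.8 and 8.80 CPM in the Mll1-/- set and 1.08, 1.90, 2.09 and 3.81 CPM in the Mll1+/- set. All 4 libraries labelled Mll1-/- were above all 4 labelled Mll1+/-, and the means were 7.90 ± 2.49 against 2.22 ± 1.15 CPM (SD, n = 4 each), a 3.55-fold difference (log2 fold change 1.83, standard error 0.44, adjusted p = 0.249, edgeR; interval 0.84 to 2.81). *Creb3l1* (OASIS; ENSMUSG00000027230, chromosome 2, 91982328 to 92024502), an ER-bound transcription factor cut like ATF6 and linked to the maturation of secretory cells, was at 6.20, 9.27, 7.57 and 9.33 CPM in the Mll1-/- set and 1.44, 4.99, 0.481 and 3.55 CPM in the Mll1+/- set. Its groups did not overlap either, with the lowest value in J_7134, and the means were 8.09 ± 1.50 against 2.62 ± 2.04 CPM, or 3.08-fold (log2 fold change 1.62, standard error 0.59, adjusted p = 0.481, edgeR; interval 0.29 to 2.96). The relative *Creb3l4*, a similar ER-bound factor, was at 12.9, 11.5, 26.9 and 22.9 CPM in the Mll1-/- set and 15.6, 5.77, 31.8 and 30.0 CPM in the Mll1+/- set. These values spread from 5.77 to 31.8 CPM within the Mll1+/- set alone, the groups overlapped fully, and the interval of the difference ran from -1.29 to 0.96.

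The canonical sensors gave overlapping values. *Ern1* was at 6.43, 6.02, 9.46 and 2.36 CPM in the Mll1-/- set and 6.22, 9.77, 8.02 and 6.59 CPM in the Mll1+/- set, with its lowest value in J_7136 (log2 fold change -0.33, standard error 0.40, adjusted p = 0.852, edgeR; interval -1.23 to 0.57). *Eif2ak3*, the kinase PERK, was at 11.1, 11.9, 14.5 and 7.68 CPM in the Mll1-/- set and 7.96, 15.5, 14.04 and 5.68 CPM in the Mll1+/- set (log2 fold change 0.069, standard error 0.36, adjusted p = 0.972, edgeR; interval -0.74 to 0.87), and the Mll1+/- set held both its highest and its lowest library. *Atf6* was at 22.5, 26.1, 11.7 and 13.6 CPM in the Mll1-/- set and 24.8, 21.4, 24.3 and 20.3 CPM in the Mll1+/- set (log2 fold change -0.30, standard error 0.27, adjusted p = 0.791, edgeR; interval -0.91 to 0.32). Its Mll1-/- values lay both at the top (J_7096) and at the bottom (J_7135 and J_7136) of all libraries. Each of these intervals reached to both sides of 0.

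Of the downstream factors, *Xbp1*, the target of IRE1 splicing, was at 137, 79.1, 159.8 and 97.1 CPM in the Mll1-/- set and 118, 104, 155 and 129.6 CPM in the Mll1+/- set. The Mll1-/- set held its highest and its lowest library, and the difference was small beside this spread (log2 fold change -0.10, standard error 0.23, adjusted p = 0.930, edgeR; interval -0.61 to 0.41). The counts sum spliced and unspliced *Xbp1*, which cannot be told apart. *Atf4*, the effector of PERK and of other kinases of the integrated stress response, was at 159, 145, 155 and 203 CPM in the Mll1-/- set and 132, 129.7, 135 and 150.2 CPM in the Mll1+/- set. Only J_7096 among the libraries labelled Mll1-/- fell inside the Mll1+/- range (log2 fold change 0.28, standard error 0.13, adjusted p = 0.572, unadjusted p = 0.0632, edgeR). *Ddit3* (CHOP), a factor of the late stress response, was at 9.15, 11.4, 17.5 and 12.1 CPM in the Mll1-/- set and 12.3, 12.9, 9.54 and 15.0 CPM in the Mll1+/- set with means of 12.5 ± 3.55 against 12.4 ± 2.26 CPM (log2 fold change 0.013, standard error 0.26, adjusted p = 0.993, edgeR; interval -0.58 to 0.60). Its annotated exons overlap another gene entry over 10.9% of their bases, where reads were not counted.

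**Figure D3:**
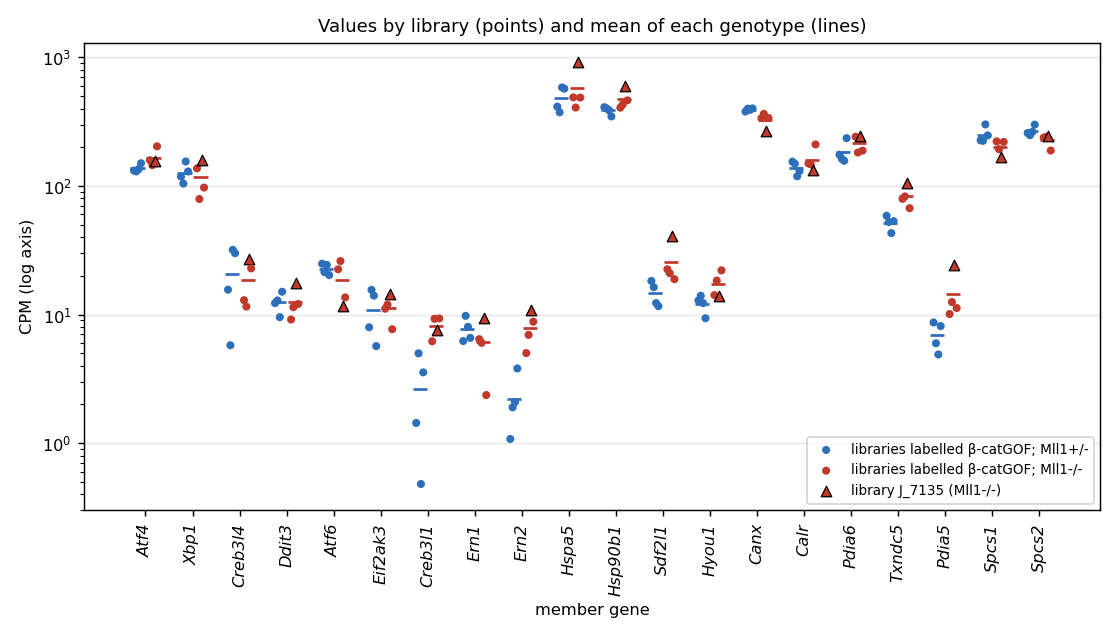
CPM on a log axis of the 20 members whose values are given library by library, with points for libraries and lines for the mean of each genotype; triangles mark J_7135. The points of the genotypes separate for *Ern2*, *Creb3l1*, *Pdia5*, *Sdf2l1* and *Txndc5*, which are higher in the libraries labelled Mll1-/-, and for *Canx*, *Spcs1* and *Spcs2*, which are lower.

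Of the 10 chaperones and co-chaperones, 8 had a higher and 2 a lower mean in the libraries labelled Mll1-/-, with a median log2 fold change of 0.16; without J_7135 the split was 5 to 5 with a median of 0.050. *Hspa5* (BiP), the major ER chaperone and the usual readout of the unfolded protein response, was at 488, 407, 921 and 486 CPM in the Mll1-/- set and 414, 374, 583 and 571 CPM in the Mll1+/- set. J_7135 stood far above the rest of its genotype, and the other Mll1-/- values lay inside the Mll1+/- range (log2 fold change 0.25, standard error 0.26, adjusted p = 0.831, edgeR; interval -0.35 to 0.84). Without J_7135 the log2 fold change of *Hspa5* was -0.077. *Hsp90b1*, which folds integrins and Toll-like receptors, was at 406, 430.0, 601 and 463 CPM in the Mll1-/- set and 409.9, 400.5, 387 and 347 CPM in the Mll1+/- set. Its exon bases overlap 1810014B01Rik over 15.7%, where reads were not counted. Here J_7075 alone lay inside the Mll1+/- range (log2 fold change 0.30, standard error 0.14, adjusted p = 0.556, unadjusted p = 0.0532, edgeR). *Hyou1* (GRP170), a nucleotide exchange factor of *Hspa5*, was at 14.2, 18.4, 13.9 and 22.1 CPM in the Mll1-/- set and 12.9, 13.99, 12.3 and 9.36 CPM in the Mll1+/- set, with J_7135 just below the highest Mll1+/- library (log2 fold change 0.50, standard error 0.24, adjusted p = 0.572, unadjusted p = 0.0628, edgeR).

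*Sdf2l1* (ENSMUSG00000022769, chromosome 16, 17130140 to 17132383), a partner of the *Hspa5* co-chaperone *Dnajb11*, was the chaperone member that passed the unadjusted threshold, at 22.5, 21.0, 40.6 and 18.8 CPM in the Mll1-/- set and 18.2, 16.3, 12.3 and 11.6 CPM in the Mll1+/- set. The groups did not overlap, but the gap between J_7136 and J_7079 was narrow and J_7135 lay far above the rest. The means were 25.7 ± 10.0 against 14.6 ± 3.19 CPM (log2 fold change 0.82, standard error 0.29, adjusted p = 0.474, edgeR), and without J_7135 the log2 fold change was 0.51 (unadjusted p = 0.0466). The other chaperone members had an unadjusted p over 0.05: *Creld2*, a folding factor released under ER stress, at 0.39 on the log2 scale, *Manf*, a secreted stress-induced factor, at -0.28, and the J-domain co-chaperones *Dnajc3* at 0.074, *Dnajb11* at 0.032, *Dnajc10* at 0.020 and *Dnajb9* at -0.48. J_7135 was the highest library for *Creld2* (78.5 CPM) and the lowest for *Dnajb9* (22.8 CPM, 65.0 to 91.4 CPM in the Mll1+/- set).

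The lectin chaperones, which hold glycoproteins while they fold, differed in the sign of their change. *Canx* (ENSMUSG00000020368, chromosome 11, 50293961 to 50325673), the membrane-bound calnexin, was at 337, 363, 266 and 338 CPM in the Mll1-/- set and 379, 399, 391 and 401 CPM in the Mll1+/- set. Every library labelled Mll1-/- lay below the Mll1+/- set, whose values were close together, with means of 326 ± 41.6 against 392.3 ± 9.93 CPM (log2 fold change -0.27, standard error 0.11, adjusted p = 0.524, unadjusted p = 0.0387, edgeR). Without J_7135 its log2 fold change was -0.18 (unadjusted p = 0.0815). *Calr*, the soluble calreticulin, was at 149.6, 147, 133 and 210.2 CPM in the Mll1-/- set and 154, 149, 119 and 131 CPM in the Mll1+/- set, and apart from J_7136 its libraries overlapped (log2 fold change 0.21, standard error 0.16, adjusted p = 0.741, edgeR; interval -0.16 to 0.58).

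The 7 disulfide isomerases among the members form and rearrange the disulfide bonds of folding proteins. All had a higher mean in the libraries labelled Mll1-/-, with a median log2 fold change of 0.17. Each was higher in both series of consecutive library numbers. Without J_7135, 5 were higher and 2 lower, with a median of 0.063. Related genes outside the members went both ways. *Erp29* had a log2 fold change of 0.51, *Erp44* of -0.24, *Tmx1* of -0.35, *Tmx2* of -0.096, *Tmx3* of -0.60 and *Tmx4* of -0.34. *Txndc5* (ERp46; ENSMUSG00000038991, chromosome 13, 38500079 to 38528824) was at 79.4, 82.9, 105 and 67.1 CPM in the Mll1-/- set and 58.6, 52.4, 43.0 and 53.2 CPM in the Mll1+/- set. The groups did not overlap, with means of 83.6 ± 15.8 against 51.8 ± 6.50 CPM, or 1.61-fold (log2 fold change 0.69, standard error 0.17, adjusted p = 0.251, edgeR; interval 0.31 to 1.07). Of its exon bases, 11.9% overlap the gene entry Gm31834, where reads were not counted. *Pdia5* (ENSMUSG00000022844, chromosome 16, 35397313 to 35490873) was at 10.1, 12.5, 24.4 and 11.2 CPM in the Mll1-/- set and 8.68, 5.98, 4.89 and 8.13 CPM in the Mll1+/- set. Again the groups did not overlap, but J_7135 lay far above the next library. The means were 14.6 ± 6.66 against 6.92 ± 1.79 CPM, or 2.10-fold (log2 fold change 1.07, standard error 0.35, adjusted p = 0.426, edgeR), and without J_7135 the log2 fold change was 0.70 (unadjusted p = 0.0279).

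*Pdia6* (P5), which also tunes IRE1 and PERK, was at 241, 182, 245 and 188 CPM in the Mll1-/- set and 175, 162, 157 and 235 CPM in the Mll1+/- set, and J_7139 of the Mll1+/- set lay among the high values (log2 fold change 0.23, standard error 0.17, adjusted p = 0.723, edgeR; interval -0.14 to 0.60). The abundant isomerases differed little: *Pdia3* (ERp57), the partner of *Calr* and *Canx*, had a log2 fold change of 0.17 (interval -0.12 to 0.45), *P4hb* (PDI) of 0.14 (interval -0.34 to 0.62) and *Pdia4* (ERp72) of 0.13 (interval -0.22 to 0.47). *Txndc11*, a partner of Edem proteins, gave 0.068 with a wide interval of -0.85 to 0.98.

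Of the 9 members of ER-associated degradation, 8 were tested, 4 with a higher and 4 with a lower mean, and none passed the unadjusted threshold. The core of the ubiquitin ligase was nearly level, with *Sel1l* at 57.5 ± 6.46 against 56.3 ± 8.26 CPM (log2 fold change 0.032, interval -0.32 to 0.38), and its ligase *Syvn1* (HRD1) at 0.16 (interval -0.51 to 0.83). *Herpud1*, a stress-induced partner of that ligase, was at 0.040, and was lower in number series 1 (-0.41) and higher in number series 2 (0.46). The mannosidase-like Edem genes, which mark glycoproteins for disposal, differed among themselves, with log2 fold changes of 0.48 for *Edem2*, -0.15 for *Edem1* and -0.51 for *Edem3* (unadjusted p = 0.0872, edgeR). The derlins, which form the exit channel, were at -0.0057 for *Derl1* and -0.40 for *Derl2*. *Derl3* did not pass the filter, with 0 counts in J_7096 and J_7139 and its highest value of 1.89 CPM in J_7135.

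Of the 9 members of the translocon and signal peptidase, 3 had a higher and 6 a lower mean, with all 3 signal peptidase subunits among the lower members. *Spcs1* (ENSMUSG00000021917, chromosome 14, 30999826 to 31001672) was at 222, 193, 168 and 219.9 CPM in the Mll1-/- set and 226, 224, 301 and 247 CPM in the Mll1+/- set. The groups did not overlap, though J_7075 lay only just below J_7100, and the means were 201 ± 25.6 against 249.6 ± 35.6 CPM (log2 fold change -0.31, standard error 0.14, adjusted p = 0.543, unadjusted p = 0.0475, edgeR). Without J_7135 it was -0.24 (unadjusted p = 0.110), and 16.3% of its exon bases overlap Glt8d1, where reads were not counted. *Spcs2* (ENSMUSG00000035227, chromosome 7, 99837569 to 99863462) was at 237, 241, 243 and 189 CPM in the Mll1-/- set and 258, 248, 264 and 299.7 CPM in the Mll1+/- set, without overlap and with J_7136 well below the rest of its set (log2 fold change -0.23, standard error 0.12, adjusted p = 0.604, unadjusted p = 0.0806, edgeR). *Spcs3*, the third subunit here, had a log2 fold change of -0.41 (interval -0.97 to 0.15), with overlapping groups and its lowest value of 36.1 CPM in J_7135.

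*Sec61a1*, the pore of the channel, had a log2 fold change of 0.69 (unadjusted p = 0.0652, edgeR), with 58.0 CPM in J_7135 beside 16.2 to 27.1 CPM in the Mll1+/- set. Its partner subunit *Sec61b* was at -0.047 (interval -0.44 to 0.34). The subunits of the translocon-associated TRAP complex were at 0.059 for *Ssr1*, 0.017 for *Ssr2*, -0.16 for *Ssr3* and -0.088 for *Ssr4*. The interval of *Ssr4*, from -0.29 to 0.12, was among the narrowest of the members.

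Promoters were looked at because many of these genes are known to respond to ATF6 and XBP1 through short elements. RefSeq promoters of GRCm38.p6, from 250 bases before to 50 after a start site, were listed for 37 of the 46 members, 43 promoters in all. Those of *Ern2*, *Spcs3*, *Creb3l1*, *Atf6*, *Derl1*, *Hyou1*, *Sec61a1*, *Ssr2* and *Manf* were not analysed here. On both strands, 4 elements were searched: the ER stress response element (ERSE, CCAAT, 9 bases of any kind, CCACG), its variant ERSE-II (ATTGG, 1 base of any kind, CCACG), the unfolded protein response element (UPRE, TGACGTGG, which contains the complement CGTGG of the CCACG part) and the C/EBP-ATF element of *Atf4* targets (TGATG, 1 base of any kind, AA). The promoters of the chaperones *Hspa5* and *Hsp90b1*, of the isomerase *Pdia6*, of *Canx* as the lower lectin chaperone, and of *Txndc5* as a higher isomerase are shown as the 250 bases before the start, 5′ to 3′ on the strand of the gene, with the matched ERSE or UPRE in capitals. They lie at chr2:34771840-34772089 (plus strand), chr10:86705445-86705694 (minus), chr12:17266339-17266588 (plus), chr11:50325674-50325923 (minus) and chr13:38527915-38528164 (minus, 1 of 3 listed start sites).
Hspa5: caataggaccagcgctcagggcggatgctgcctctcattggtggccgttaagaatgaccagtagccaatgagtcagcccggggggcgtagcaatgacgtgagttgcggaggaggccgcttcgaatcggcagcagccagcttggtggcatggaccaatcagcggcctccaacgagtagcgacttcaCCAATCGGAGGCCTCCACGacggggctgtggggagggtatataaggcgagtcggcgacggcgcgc
Hsp90b1: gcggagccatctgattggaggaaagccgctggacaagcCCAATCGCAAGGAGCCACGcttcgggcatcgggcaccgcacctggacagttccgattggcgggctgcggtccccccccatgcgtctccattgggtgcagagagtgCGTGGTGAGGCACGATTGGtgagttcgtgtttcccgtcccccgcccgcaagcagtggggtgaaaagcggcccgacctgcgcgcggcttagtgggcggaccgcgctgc
Pdia6: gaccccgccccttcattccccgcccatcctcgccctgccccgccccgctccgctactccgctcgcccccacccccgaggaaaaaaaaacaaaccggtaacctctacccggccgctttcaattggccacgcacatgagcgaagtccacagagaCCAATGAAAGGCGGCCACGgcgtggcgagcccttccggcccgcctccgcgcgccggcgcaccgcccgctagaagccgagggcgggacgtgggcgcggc
Canx: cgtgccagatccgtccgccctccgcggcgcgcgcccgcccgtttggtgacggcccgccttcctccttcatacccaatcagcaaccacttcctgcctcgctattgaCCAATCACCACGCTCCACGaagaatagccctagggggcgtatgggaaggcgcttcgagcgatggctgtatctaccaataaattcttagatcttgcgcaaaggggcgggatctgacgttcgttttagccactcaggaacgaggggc
Txndc5: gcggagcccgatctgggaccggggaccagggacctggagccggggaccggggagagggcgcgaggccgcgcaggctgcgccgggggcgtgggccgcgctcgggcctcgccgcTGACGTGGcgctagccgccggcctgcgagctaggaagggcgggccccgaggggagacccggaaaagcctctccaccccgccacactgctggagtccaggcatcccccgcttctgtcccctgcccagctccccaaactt

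An ERSE began 65 bases before the start in *Hspa5*, 212 and 107 before it in *Hsp90b1*, 98 in *Pdia6* and 145 in *Canx*, and the UPRE of *Txndc5* began 138 bases before it. In all, 9 of the 43 member promoters (20.9%), each of another member, held an ERSE (*Calr*, *Canx*, *Creld2*, *Derl3*, *Dnajc3*, *Hsp90b1*, *Hspa5*, *Pdia6* and *Syvn1*), where 39 of 32851 listed mouse promoters (0.119%) did. The other elements were each found in 2 of the 43 (4.65%): ERSE-II in *Dnajb11* and *Herpud1*, beside 0.0365% of all promoters, UPRE in *Txndc5* and *Txndc11*, beside 0.676%, and C/EBP-ATF in *Herpud1* and at another start site of *Txndc5*, beside 3.97%. The 8 tested members with an ERSE had a median log2 fold change of 0.22, and the 28 tested members whose listed promoter held none had a median of 0.03. *Canx* was the only lower one of the 8, and the only one past the unadjusted threshold. Without J_7135 the log2 fold change was -0.077 for *Hspa5*, 0.16 for *Hsp90b1*, 0.16 for *Pdia6*, 0.29 for *Calr* and -0.18 for *Canx*. J_7135 was the highest library for *Creld2*, *Dnajc3* and *Syvn1* (78.5, 109.6 and 15.4 CPM), whose changes without it are not given here. The medians with and without an ERSE were not taken without J_7135. A part of the ERSE in these differences was not tested. Of the members past the unadjusted threshold with a listed promoter, *Txndc5* and *Canx* held an ERSE or UPRE, and *Pdia5*, *Sdf2l1* and *Spcs1* held none of these letters in the window. A match is a description of the letters and not a site in use.

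Other genes of the pathway were read from lists. Of 22 tested targets of *Atf4* and the integrated stress response, 14 had a higher and 8 a lower mean, with a median log2 fold change of 0.31. At an unadjusted p under 0.05 (edgeR), 6 were higher and 0 lower, beside 5.4% and 3.75% of all genes. The smallest adjusted p among them was 0.339. *Ppp1r15a* (GADD34), which restores translation after PERK, was at 19.1 to 68.0 against 11.7 to 17.5 CPM (log2 fold change 1.33, standard error 0.37, adjusted p = 0.339, edgeR), without overlap. The stress-induced factor *Atf3* was at 139.5 to 298 against 85.3 to 140.2 CPM (log2 fold change 0.89, standard error 0.27, adjusted p = 0.384, edgeR), and *Wars*, which charges tRNA with tryptophan, at 36.6 to 108 against 19.8 to 35.1 CPM (log2 fold change 1.07, standard error 0.36, adjusted p = 0.449, edgeR). These differences did not pass the threshold over all genes. Without J_7135, 4 of 23 tested targets were higher and 1 was lower at an unadjusted p under 0.05, beside 4.73% and 4.33% of all genes tested then, with a median of 0.20. The summed CPM of the list was 1402, 1099, 1577 and 1307 in the Mll1-/- set, highest in J_7135, and ran from 923 to 1278 in the Mll1+/- set. The groups overlapped.

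The remaining lists held few genes past the unadjusted threshold, which 5.4% of all genes tested passed as higher and 3.75% as lower. Among 20 tested genes of oxidative and other folding, 1 was higher and 2 were lower at an unadjusted p under 0.05, with a median of -0.18: *Erp29*, a thioredoxin-like chaperone, was at 48.4 to 61.0 against 34.5 to 42.5 CPM (log2 fold change 0.51, standard error 0.14, adjusted p = 0.346, edgeR), *Ppic*, a prolyl isomerase, at 15.1 to 24.5 against 24.7 to 32.3 CPM (log2 fold change -0.57, standard error 0.21, adjusted p = 0.479), and *Tmx3*, a membrane-bound isomerase, at 25.5 to 47.3 against 43.0 to 74.1 CPM (log2 fold change -0.60, standard error 0.24, adjusted p = 0.511), the last past it only with J_7135. None of the 11 oligosaccharyltransferase genes passed the unadjusted threshold, and their log2 fold changes lay between -0.18 and 0.20. Of 15 further genes of ER targeting and translocation, 0 passed it (median -0.072). Of 20 further degradation genes, *Rnf5*, an ER ubiquitin ligase, passed it alone (log2 fold change 0.64, standard error 0.28, adjusted p = 0.546, edgeR), though not without J_7135, and of 24 genes of ER exit and retrieval, *Sec24a*, a coat subunit of export vesicles, did so with a lower level (log2 fold change -0.65, standard error 0.28, adjusted p = 0.527, edgeR).

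J_7135 was often at an extreme. It was the highest library for 19 and the lowest for 11 of the 45 members tested, 66.7% in all, where it was at an extreme for 50.1% of all genes tested. The summed CPM of the 46 members was 6052 in J_7135, 4915 to 5412 in the other libraries labelled Mll1-/- and 4907 to 5403 in those labelled Mll1+/-. Without J_7135 the median log2 fold change of the members was -0.03, and 7 members passed the unadjusted threshold, 6 higher beside 4.73% of 17150 genes tested and 1 lower beside 4.33%, 5 of them shared with the full set (*Ern2*, *Creb3l1*, *Pdia5*, *Sdf2l1* and *Txndc5*). *Canx* and *Spcs1* were then past it no longer, and *Hyou1* (log2 fold change 0.58, higher) and *Derl2* (lower) were. J_7135 also had the lowest mitochondrial share, 17.1%, and its part in these results was tested only by leaving it out.

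**Figure D4:**
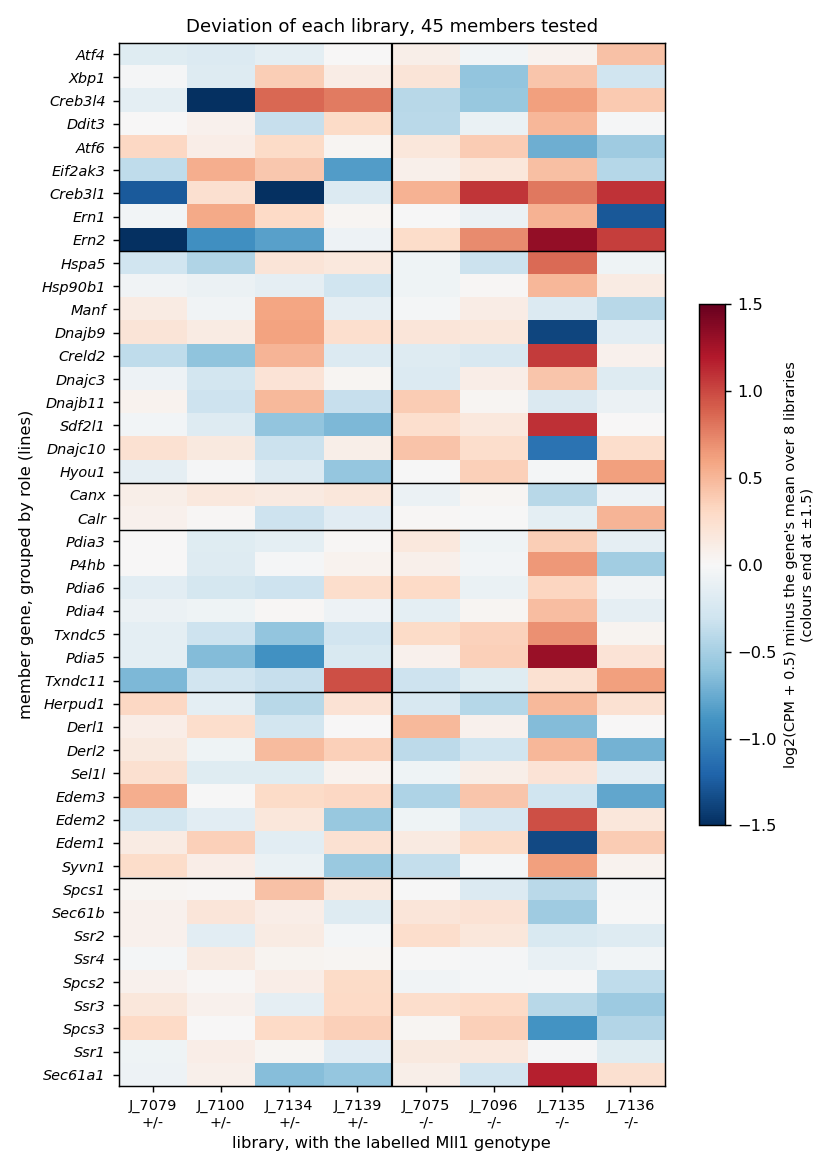
Deviation of each library from the mean of the gene over 8 libraries, in log2(CPM + 0.5), for the 45 members tested, with roles separated by lines and the genotypes by a vertical line. J_7135 is at an extreme for 30 members, in either direction, and *Ern2* and *Creb3l1* stand out in all 4 libraries labelled Mll1-/-.

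Each library carries a number in the counting header, and these numbers fall into 2 consecutive series, each with 2 libraries of each genotype: J_7075, J_7079, J_7096 and J_7100 in series 1 and the others in series 2. What a series stands for is not labelled. Of the 45 members, 17 were higher in both series, 9 were lower in both, and 19 changed sign, 13 of them from higher in series 1 to lower in series 2. The sign was thus the same in both series for 26 members, a share close to that of all genes tested, 9296 of 16445. The difference in log2(CPM + 0.5) of *Ern2* was 1.72 in series 1 and 1.62 in series 2, that of *Creb3l1* 1.31 in series 1 and 2.16 in series 2, and that of *Txndc5* 0.55 in series 1 and 0.81 in series 2. For *Pdia5* it was 0.61 in series 1 and 1.33 in series 2, and for *Sdf2l1* 0.32 in series 1 and 1.18 in series 2, so that both were wider in the series that holds J_7135. *Canx* (-0.15 in series 1 and -0.40 in series 2) and *Spcs1* (-0.12 in series 1 and -0.50 in series 2) were lower in both. With 2 libraries of each genotype, a series by itself gave no test.

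**Figure D5:**
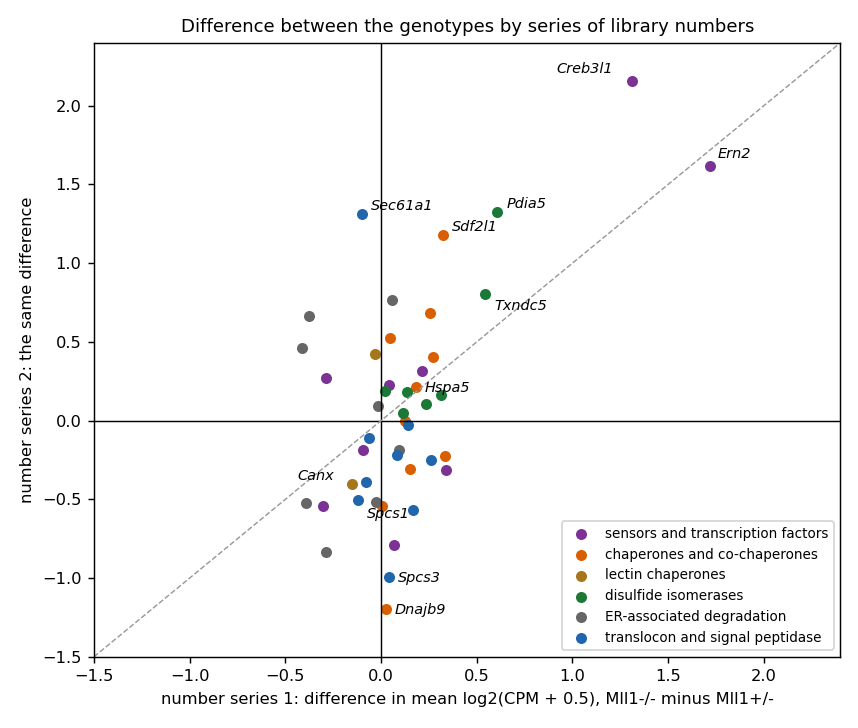
Difference between the genotypes in mean log2(CPM + 0.5) within series 1 (horizontal) and series 2 (vertical) of the library numbers for the 45 members tested, coloured by role; the dashed line marks equal differences. *Ern2* and *Creb3l1* lie far up the diagonal, 17 members lie above 0 in both series, and 19 change sign. The sign is the same in both series for 26 members, beside 9296 of all 16445 genes tested.

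Marker lists of other cells had unequal sums in the genotypes. Of all 16445 genes tested, 8350 had a higher and 8095 a lower mean in the libraries labelled Mll1-/-. At an unadjusted p under 0.05 (edgeR), 5.4% were higher and 3.75% lower. The goblet list summed to 657 to 1171 CPM in the libraries labelled Mll1-/- and 607 to 804 CPM in those labelled Mll1+/-, with 7 of 9 tested markers higher and 4 past an unadjusted p under 0.05 in that direction: *Muc2* was at 25.4 to 81.8 against 7.62 to 14.7 CPM, *Spdef* at 4.11 to 15.1 against 0.646 to 1.91 CPM and *Agr2* at 219 to 435 against 163 to 234 CPM, while *Zg16* was lower at 0 to 2.95 against 2.39 to 37.5 CPM. The Paneth list summed to 1836 to 5513 against 3587 to 6126 CPM, with 8 of 10 markers lower. Enterocyte markers were lower in 8 of 8 tested (198 to 274 against 346 to 442 CPM), and the stem cell list in 8 of 10 (11079 to 17838 against 23539 to 27878 CPM, largely *Olfm4*). Their part in the values of *Ern2*, *Creb3l1* and the isomerases was not tested. Of the plasma cell markers, *Mzb1* and *Igha* reached no more than 0.811 and 0.968 CPM, and the sum of that list of 35.8 to 91.9 CPM was nearly all *Sdc1*, which epithelium also expresses. Enteroendocrine markers summed to 6.11 to 9.85 against 11.8 to 72.5 CPM, tuft markers to 4.00 to 11.8 against 2.81 to 4.71 CPM and other leukocyte markers to 4.6 to 13.7 against 10.1 to 16.7 CPM. The fibroblast and muscle list reached 49.7 to 119 CPM against 4.20 to 6.61 CPM mainly through *Vim* (44.3 to 116 against 0.194 to 4.89 CPM), and *Col1a1*, *Col3a1* and *Dcn* stayed at or under 1.27 CPM.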

How the data were processed

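Smart-seq2 libraries of sorted Lgr5-GFP+ cells from 8 mice were analysed, and the mouse is the replicate. The authors demultiplexed with bcl2fastq 2.19.1, aligned with GSNAP to mm10, counted with featureCounts 1.6.3 on Ensembl release 92 without strand (mapping quality of at least 1, reads on more than 1 gene left out) and deposited raw counts. The deposited normalised table holds a signal, counts divided by 1 size factor per library (DESeq2 1.22.2), and was used for gene symbols. The Length column of the count table, the exon bases per gene, gave TPM. The protocol has no molecular identifiers, so floors cover counting error only.

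Counts on 53801 genes (14468751 to 16847793 per library; 92 spike-in rows left out) were filtered with filterByExpr (10 counts, 15 in total), TMM-scaled and tested with edgeR 4.0.16 in R 4.3.3 (robust quasi-likelihood, two-sided, genotype only, Benjamini-Hochberg over 16445 genes, threshold 0.1). Alternatives were other scalings and filters, DESeq2 1.42.0, limma-voom (limma 3.58.1), the series of library numbers as a block and each library left out. The tests were checked on simulated counts drawn with edgeR's estimates of the spread between libraries, which may favour edgeR. There DESeq2 made a larger share of false calls than edgeR or limma-voom, and well above its threshold. Each test missed most of the simulated 2-fold changes. Consecutive library numbers in the file header gave 2 series of libraries, which no source used here calls a batch. Figures used matplotlib 3.10.9. Members, roles and lists were chosen with earlier results of these data known. Values by library are given for the sensors and transcription factors, *Hspa5*, *Hsp90b1*, *Calr*, *Pdia6*, *Hyou1*, members with an unadjusted p under 0.05 and members without overlap; of each further pathway list, at most 3 genes with the smallest p are named. Mesdc2 and Srp54a had no symbol in the table used here.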

Additional observations from a re-analysis of the deposited data

Results flagged for a closer look

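Among the 40 groups of 4 libraries looked at for the 20 members with full values, 4 held a library far from the other 3 by Dixon's criterion, which chance alone gives in about 1 of 20 groups. *Hspa5* was at 920.6 CPM in J_7135, where the other libraries labelled Mll1-/- lay between 407 and 488 CPM. *Sdf2l1* was at 40.6 CPM in J_7135, beside 18.8 to 22.5 CPM. *Pdia5* was at 24.4 CPM in J_7135, beside 10.1 to 12.5 CPM. *Spcs2* was at 188.6 CPM in J_7136, beside 237 to 243 CPM. For *Sdf2l1* and *Pdia5* the groups did not overlap. Leaving out J_7135, the highest library of the higher group, could not change that. For *Hspa5* the sign turned without J_7135. The cause of these values was not tested.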

How the results depend on the processing

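Over 17 alternatives, no member reached an adjusted p under 0.1 except under DESeq2. There 2 did, *Ern2* (log2 fold change 1.84, adjusted p = 0.00923) and *Txndc5* (log2 fold change 0.70, adjusted p = 0.0166). DESeq2 made many false calls on simulated counts, but those were drawn with edgeR's estimates of the spread between libraries, which may favour edgeR. *Ern2*, *Pdia5* and *Txndc5* passed an unadjusted p under 0.05 in 17 of 17 alternatives, *Sdf2l1* in 15 of 17, *Creb3l1* in 15 of the 16 in which it was tested, and *Canx* and *Spcs1* in 8. The number of members past it lay between 4 (without J_7134, all higher, beside 4.22% of all genes tested) and 11 (without J_7096, 8 higher beside 6.17% and 3 lower beside 4.69%) when libraries were left out. The median log2 fold change of the members then lay between -0.030 (without J_7135) and 0.096. The count of all genes changed moved from 14 to 8 with upper quartile scaling, 406 with DESeq2, 103 with limma-voom, 47 without a filter, 34 with at least 10 counts in every library, and 0 with the series of library numbers as a block, where 1642 genes had an unadjusted p under 0.05. Leaving out libraries gave 0 to 45. Of 339 values of single members, 326 kept their direction. *Ddit3* turned to -0.19 with limma-voom and -0.011 with that block. When libraries were left out, *Ddit3* lay between -0.19 and 0.13, *Xbp1* between -0.28 and 0.051, *Creb3l4* between -0.48 and 0.11, *Eif2ak3* between -0.15 and 0.30 and *Hspa5* between -0.077 and 0.38. The cause of these shifts was not tested. Depth limits the low genes most, and *Derl3*, with 0 to 35 counts, could not be compared. Low counts also bear on the 2 widest differences. *Creb3l1* had 6 counts in J_7134 and 24 in J_7079, and *Ern2* had 18 to 59 counts in the libraries labelled Mll1+/-. No paired analysis was possible because each mouse has 1 genotype and the labels do not tie mice of the 2 genotypes to each other.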
